A study of Mus musculus with 18 samples.

Results

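The genes described here are the type 2 cytokine locus of the mouse (Il4, Il13, Il5 and Rad50, the gene that lies among them) and 4 further effector cytokines of T helper 2 (Th2) cells: Il3, Csf2, Il9 and Il31. They were taken by name, as a set put together with earlier results of these data known. All 8 were found by symbol among 23284 gene symbols in the mouse tables, and all 8 uppercase counterparts were found among 25434 symbols in the human ones. RNA sequencing had been done on 18 libraries in 6 groups of 3. The first pair of groups was memory Th2 cells with high ST2 (the IL-33 receptor chain) of BALB/c mice, cultured for 3 days with IL-2 alone (libraries 1, 3 and 5) or with IL-2 and IL-33 (libraries 2, 4 and 6). In the second pair, eosinophils were cultured for 3 days without or with amphiregulin, a growth factor that binds the EGF receptor (libraries 2, 3 and 4 of each). The third pair was whole lung of BALB/c mice given ovalbumin (OVA), wild type or labelled dGATA and knock-out (libraries 1, 2 and 3 of each). IL-2 was in all 6 Th2 cultures and OVA was given to all 6 lungs, so no Th2 culture without IL-2 and no lung without OVA was compared.

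IL-4, IL-5 and IL-13 are the signature cytokines of Th2 cells. IL-4 drives Th2 differentiation and antibody switching to IgE, IL-5 makes and sustains eosinophils, and IL-13 acts on airway epithelium, where it brings on mucus, and on smooth muscle. In Th2 cells the genes are opened together by the transcription factor GATA3 and by a locus control region inside the last introns of Rad50, a gene whose own product is a DNA repair protein used by all cells. IL-3 and GM-CSF (the product of Csf2) act on granulocytes and macrophages through a receptor chain that they share with IL-5. IL-9 acts on mast cells and epithelium, and IL-31 is known as the itch cytokine.

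In mm10, the build named in the submitters' processing notes, Il4 lies at chr11:53612461-53618665, Il13 at chr11:53631323-53634702, Rad50 at chr11:53649519-53707319 and Il5 at chr11:53720794-53725103. The gaps between these neighbours are 12.7, 14.8 and 13.5 kb. Il5 is transcribed from the plus strand and the other genes of the locus from the minus strand. Csf2 (chr11:54247270-54249899) begins 522 kb beyond Il5, and Il3 (chr11:54265085-54267279) 15.2 kb beyond Csf2. Il9 lies elsewhere, at chr13:56479277-56482246, and so does Il31, at chr5:123480153-123482101. In the GENCODE annotation Il4, Il13, Il5 and Csf2 have 4 exons each, Il3 and Il9 have 5, Il31 has 3 and Rad50 has 25. Rad50, Il5, Csf2 and Il31 overlap an antisense gene there (Gm22275, Gm12214, Gm12223 and Lrrc43). The labels and files do not state if counting used strand, so reads of these pairs may not have been told apart.

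The sequences just upstream of 4 members are shown because these genes are made by the same cell, 3 of them from the same locus, and were measured at different sizes and directions of difference with IL-33. They are the 250 bases before the annotated start from RefSeq (GRCm38.p6), 5′ to 3′ on the strand of the gene. They lie at chr11:53618666-53618915 for Il4, chr11:53634703-53634952 for Il13, chr11:53720544-53720793 for Il5 and chr13:56482258-56482507 for Il9. Capitals mark matches on either strand to a GATA motif (AGATAA is its best known form, AGATAG is another, and each was also searched with T for its first A), to the NFAT core GGAAAA and to the TATA box TATAAA.
Il4: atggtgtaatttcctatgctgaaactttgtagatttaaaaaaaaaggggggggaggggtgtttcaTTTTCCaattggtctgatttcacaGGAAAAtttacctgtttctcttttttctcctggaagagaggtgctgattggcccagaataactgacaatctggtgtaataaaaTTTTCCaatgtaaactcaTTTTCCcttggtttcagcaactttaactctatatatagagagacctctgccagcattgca
Il13: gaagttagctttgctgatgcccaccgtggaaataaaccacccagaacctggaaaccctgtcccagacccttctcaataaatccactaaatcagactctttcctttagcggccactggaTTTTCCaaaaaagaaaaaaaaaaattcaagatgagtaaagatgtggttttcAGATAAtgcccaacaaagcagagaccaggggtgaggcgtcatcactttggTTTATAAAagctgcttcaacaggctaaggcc
Il5: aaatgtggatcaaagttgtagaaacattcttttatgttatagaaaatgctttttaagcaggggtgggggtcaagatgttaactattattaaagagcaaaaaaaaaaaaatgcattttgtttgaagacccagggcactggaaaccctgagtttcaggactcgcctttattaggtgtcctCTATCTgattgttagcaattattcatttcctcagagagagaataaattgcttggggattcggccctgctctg
Il9: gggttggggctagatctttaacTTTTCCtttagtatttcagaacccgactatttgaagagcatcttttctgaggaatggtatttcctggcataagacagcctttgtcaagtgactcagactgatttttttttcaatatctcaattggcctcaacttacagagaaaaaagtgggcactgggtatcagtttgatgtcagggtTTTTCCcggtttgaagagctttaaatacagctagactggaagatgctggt
Positions are counted from the start site, with -1 the base before it. The Il4 stretch holds 4 NFAT matches, the most distant at -185 to -180 and the nearest at -60 to -55. The match at -161 to -156 overlaps a STAT match (TTC and GAA with 3 or 4 bases between them) at -167 to -158. Of 32851 RefSeq promoter windows of the same 300 bases (250 before and 50 after the start), 0.411% hold 3 or more NFAT matches. This cut was counted for NFAT alone, so its rarity is not a result on Il4. The window of the other annotated Il4 start holds 0 NFAT matches. Il13 has a GATA match at -81 to -76, an NFAT match at -132 to -127 and a pair of overlapping TATA matches that span -31 to -24. Il5 has a GATA match at -72 to -67 and none of the other motifs searched. Il9 has NFAT matches at -228 to -223 and at -50 to -45, a STAT match at -184 to -175, an AP-1 match (TGANTCA) at -140 to -134, and overlapping NF-kB matches at -54 to -45 and -53 to -44 that also overlap the nearer NFAT match, but no GATA match.
RefSeq promoter windows were matched for 7 of the 8 members. Il4 has 2 annotated starts, which gives 8 windows, and 6 of the 8 hold a GATA match, against 29.8% of all windows. A STAT match stood in 4 of the 8, against 14.6% of all, an NFAT match in 3 (23.4% of all), an NF-kB match (GGG and CC with 5 bases between them) in 4 (50.8%), an AP-1 match in 1 (7.81%) and a TATA match in 1 (13.6%). These matches are descriptions of letters and say nothing on whether a factor was bound.

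The deposited values are FPKM (fragments per kilobase of transcript, scaled to the mapped reads), a level corrected for gene length. The tables give no total depth. Read from the lowest values, depth was 0.67 to 1.34 of Th2 library 1, 0.36 to 1.0 of the first eosinophil library and 0.58 to 1.0 of the first lung library, with the lowest Th2 values in libraries 5 and 6. Those 2 libraries also had their titles spelled differently from the other 4, and their deviations from the group means correlated at 0.314 across genes. Libraries 3 and 2 correlated at 0.267 and libraries 1 and 4 at 0.176, so this value alone does not set them apart, and whether they share a batch is not given in the labels. The eosinophil tables hold human symbols, although their labels name BALB/c mice, and were read as human. The design text names house dust mite as the lung treatment instead of OVA, and dGATA is left unexplained in the labels. Nothing in the labels ties replicates to separate animals or cultures, so p-values measure the spread between these samples, which may be technical. In the Th2 cells the T cell gene Cd3e was at 158 ± 13.5 FPKM with IL-2 and 163 ± 15.8 with IL-33 (SD, n = 3). Cd3e does not stand for the other T cell genes: of 11 tested, 8 were higher with IL-33 and 2 lower. Cd3d had 118 ± 14.2 FPKM with IL-2 and 316 ± 29.5 with IL-33, and Cd5 176 ± 23.0 and 73.1 ± 24.6. Mast cells and basophils also make IL-4 and IL-13. Their 11 marker genes summed to 1.74 to 2.76 FPKM with IL-2 and 1.11 to 2.57 with IL-33, with Ms4a2 at 0 in all 6 libraries.

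All 8 members were detected in all 6 Th2 cultures, and no member was above 10 FPKM in any eosinophil or lung library. The 3 experiments were not normalized together, so these levels were set side by side without a test. The plot of levels by group shows all 8 members in all 18 libraries.

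**Figure D1:**
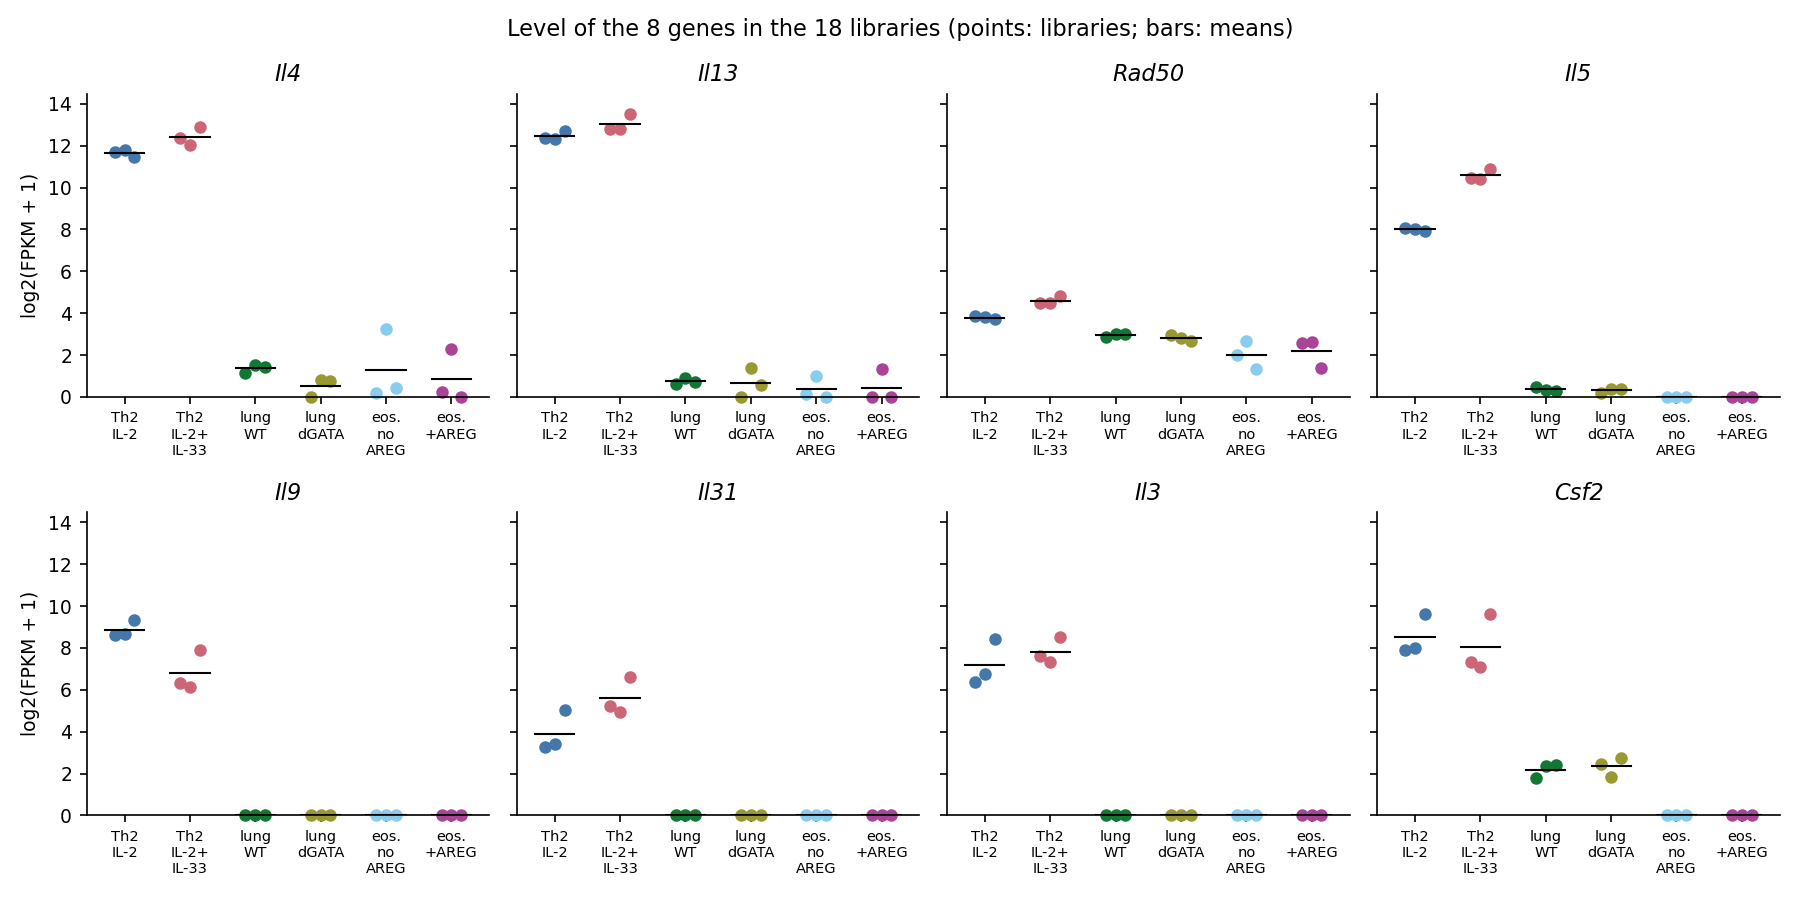
Level as log2(FPKM + 1) of the 8 members in every library, by group (eos., eosinophils; AREG, amphiregulin), with points for libraries and a bar at each group mean. Il13 and Il4 stand at 2866 FPKM or more in all 6 Th2 cultures, while no member exceeds 10 FPKM in any eosinophil or lung library.

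In the Th2 cells given IL-2 alone, Il13 was the highest member at 5754 ± 843 FPKM (mean ± SD, n = 3), ranking 4th to 6th of all genes in the 3 libraries. Il4 followed at 3255 ± 366 FPKM, at ranks 11 to 18. Their ranges did not overlap each other or those of the remaining members. Il9 (478 ± 141 FPKM), Csf2 (430 ± 317), Il5 (258 ± 10.2) and Il3 (176 ± 141) came next, and each overlapped the next in this order. Il31 (16.7 ± 13.1) and Rad50 (12.9 ± 0.751) were lowest and overlapped each other. With IL-33 the order became Il13 (8741 ± 2658 FPKM), Il4 (5677 ± 1760), Il5 (1563 ± 302), Csf2 (363 ± 370), Il3 (242 ± 112), Il9 (130 ± 95.6), Il31 (54.0 ± 36.5) and Rad50 (23.3 ± 3.13). There Il13 and Il4 overlapped, and so did the run from Csf2 to Il31, whereas Il5 stood clear of both neighbours. Il5 moved from ranks 246 to 289 of all genes with IL-2 to ranks 19 to 38 with IL-33, and Il9 from 115 to 171 to ranks 277 to 1001. Il13 alone made up 0.969 to 1.26% of all FPKM with IL-2 and 1.40 to 2.44% with IL-33.

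The comparison of the Th2 cultures asked what IL-33 adds to IL-2. Il5, Rad50 and Il4 were higher with IL-33 and Il9 was lower, while Il13, Il3, Csf2 and Il31 did not pass the test. The test was limma on log2(FPKM + 1) over the 10296 genes that reached 1 FPKM in at least 3 of the 6 libraries, and a gene was called at a Benjamini-Hochberg adjusted p below 0.05. On this scale differences of low genes are understated. All 8 members were tested, and 3 were called higher and 1 lower. That is close to the background, in which 42.1% of all tested genes were called (16.3% higher and 25.7% lower). In 5 of the 8 members the groups did not overlap, as in 56.7% of all tested genes. The median log2 difference was 0.71 over the members and -0.11 over all tested genes. Of all calls 38.8% were higher, and this share was 54.4% once each library was brought to the same sum (TPM) and 51.4% after median-of-ratios scaling. Under both scalings the members kept their direction.

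**Figure D2:**
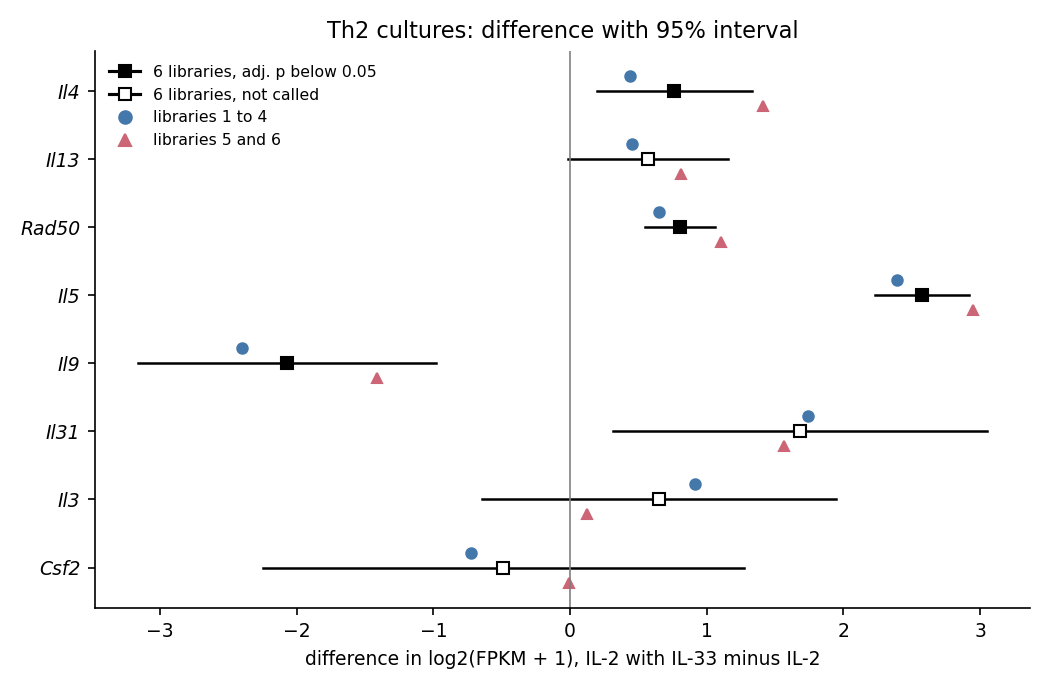
Difference in log2(FPKM + 1), IL-2 with IL-33 minus IL-2, for the 8 members, as squares (filled where called) with 95% confidence intervals from limma, and the values within libraries 1 to 4 (circles) and within libraries 5 and 6 (triangles). Il5 is highest at 2.58, Il9 lowest at -2.07, and the intervals of Il13, Il3 and Csf2 cross 0.

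Il5, the eosinophil growth and survival cytokine, had 265, 262 and 246 FPKM with IL-2 and 1424, 1355 and 1909 FPKM with IL-33. Every IL-33 library stood above every IL-2 library. The means differed 6.06-fold, and the log2 difference was 2.58 (SE 0.146, adjusted p = 4.38e-05, limma). Within libraries 1 to 4 the fold was 5.27 and within libraries 5 and 6 it was 7.75.

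Il4, the cytokine of Th2 commitment and IgE switching, had 3305, 3594 and 2866 FPKM with IL-2 and 5243, 4175 and 7613 FPKM with IL-33. The groups did not overlap, and the IL-33 libraries were spread more widely. The means differed 1.74-fold, with a log2 difference of 0.76 (SE 0.240, adjusted p = 0.0398, limma). This call rested on most of the libraries: limma's adjusted p was 0.0912 without library 1, 0.0800 without 2, 0.0747 without 3, 0.102 without 5 and 0.0592 without 6. It also missed the threshold with no filter on low values (0.172), with quantile normalization (0.0642), with array weights (0.0509) and without libraries 5 and 6 together (0.0815). The fold was 1.37 within libraries 1 to 4 and 2.66 within libraries 5 and 6.

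Il13, the cytokine of mucus and airway reactivity, had 5361, 5180 and 6722 FPKM with IL-2 and 7217, 7196 and 11810 FPKM with IL-33. All 3 IL-33 libraries were above all 3 IL-2 libraries. The fold of the means was 1.52, and the log2 difference of 0.57 had a 95% interval from -0.01 to 1.16 and did not pass the test (SE 0.247, adjusted p = 0.102, limma). The fold was 1.37 within libraries 1 to 4 and 1.76 within libraries 5 and 6.

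Rad50, the DNA repair gene that carries the locus control region, had 13.4, 13.2 and 11.99 FPKM with IL-2 and 21.4, 21.5 and 26.9 FPKM with IL-33. The groups did not overlap. The means differed 1.81-fold, with a log2 difference of 0.80 (SE 0.109, adjusted p = 0.00172, limma). Il5, Rad50 and Il9 kept their direction and their call in all 18 alternative analyses of this comparison.

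The neighbours in the locus were also compared with each other, through the ratio of their FPKM within each library, which does not depend on how libraries are scaled.

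**Figure D3:**
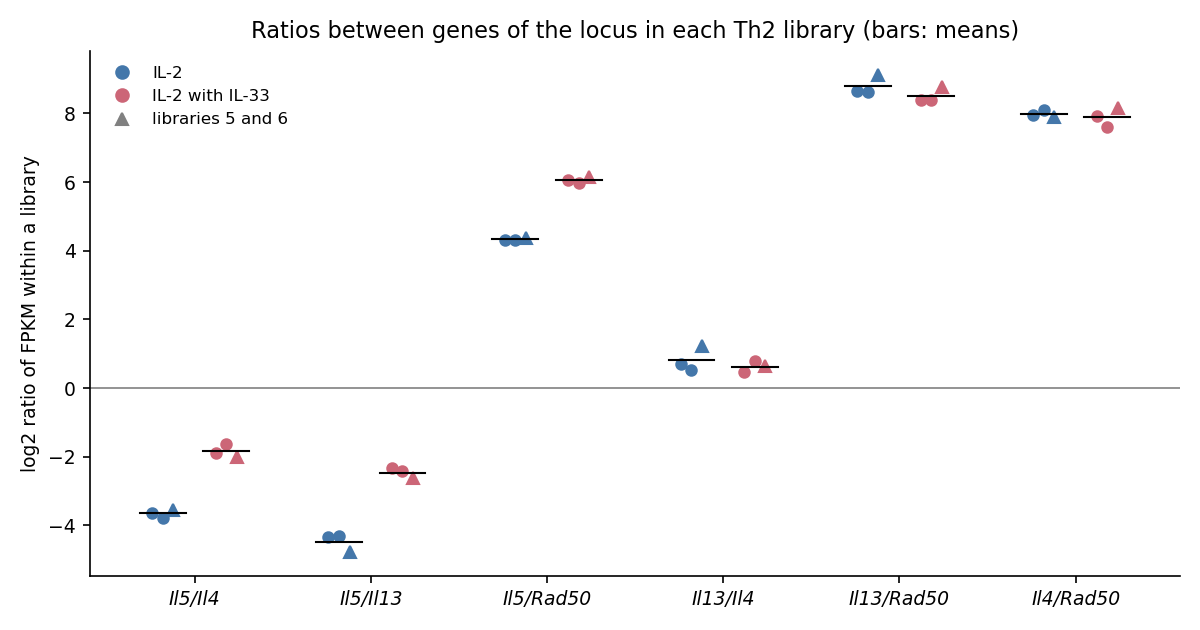
Log2 ratios of FPKM between pairs of the 4 locus genes in each Th2 library, points for libraries (triangles for 5 and 6) and bars for group means. The 3 ratios with Il5 as numerator are higher in all 3 IL-33 libraries, and the 3 remaining ratios overlap between the groups.

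Il5 over Rad50 was 19.9, 19.9 and 20.6 with IL-2 and 66.5, 63.0 and 71.0 with IL-33. Il5 over Il4 was 0.0803, 0.0730 and 0.0860 with IL-2 and 0.272, 0.325 and 0.251 with IL-33, and Il5 over Il13 was 0.0495, 0.0506 and 0.0367 against 0.197, 0.188 and 0.162. None of these 3 ratios overlapped between the groups, and Il5 gained 3.32-fold on Rad50, 3.53-fold on Il4 and 4.03-fold on Il13. The exact two-sided permutation test gave p = 0.1 for each, the smallest that 3 against 3 libraries allow, and 0.2 after adjustment over the 6 pairs. The ratios among Il4, Il13 and Rad50 overlapped between the groups. Their log2 differences were -0.19 for Il13 over Il4 (exact permutation p = 0.6, adjusted 0.72), -0.28 for Il13 over Rad50 (p = 0.3, adjusted 0.45) and -0.09 for Il4 over Rad50 (p = 0.8, adjusted 0.8). The sign of Il13 over Il4 turned to 0.014 without library 5, and that of Il4 over Rad50 to 0.061 without library 4.

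The wider neighbourhood was read from all genes of the mouse tables within 300 kb of the span from Il4 to Il5. It held 17 genes, 13 of them not members. Of these 13, 7 were tested, 4 were higher with IL-33 and 1 was lower. The higher ones were Zcchc10 (log2 difference 1.29, adjusted p = 0.00220, limma), Aff4 (1.302, adjusted p = 0.00563), Kif3a (0.67, adjusted p = 0.00462) and the septin gene listed as 8-Sep (1.36, adjusted p = 0.000547), all on the Il4 side of the locus. Uqcrq, a subunit of respiratory complex III, lay among them and was lower (-0.35, adjusted p = 0.0163). On the Il5 side, Irf1 and Slc22a5 did not pass the test (log2 differences 0.26 and -0.08, adjusted p = 0.284 and 0.548). Counting members, 7 of the 11 tested genes of this stretch were higher and 1 lower, beside 16.3% and 25.7% of all tested genes.

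**Figure D4:**
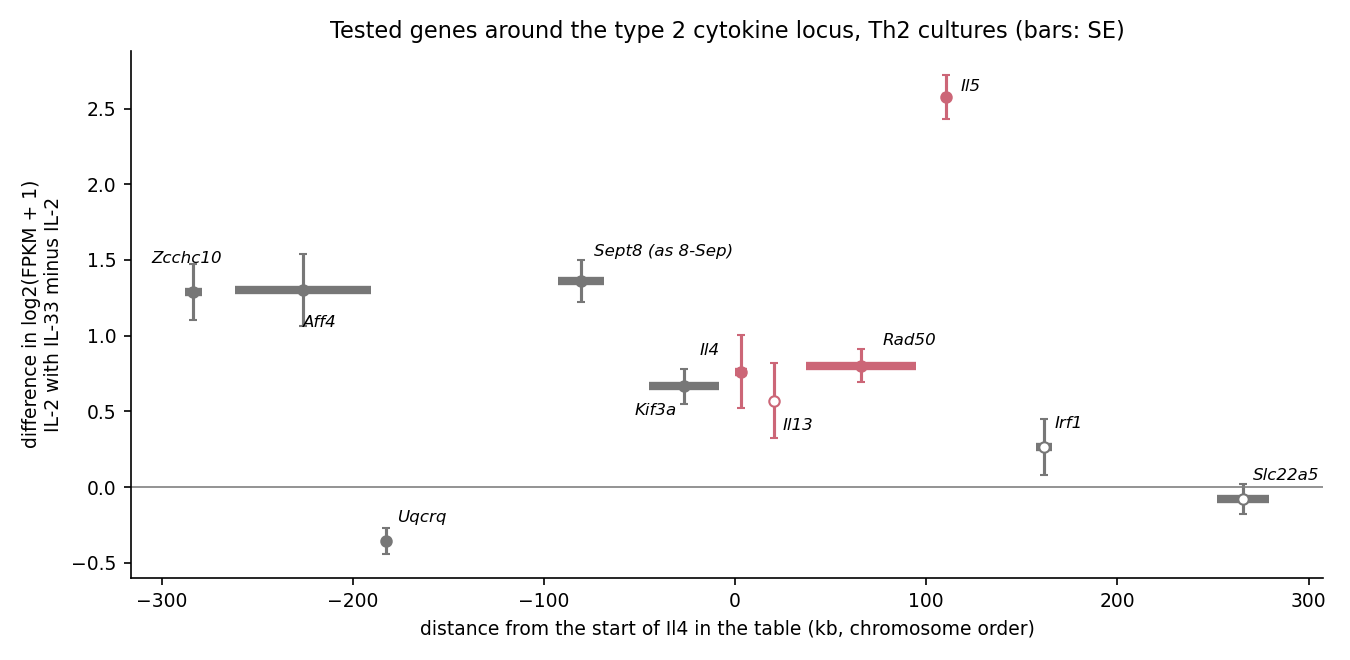
Difference in log2(FPKM + 1) with its standard error, IL-2 with IL-33 minus IL-2, for the tested genes within 300 kb of the locus, against distance from the start of Il4 in kb, with members in red, called genes as filled points and thick lines for the length of each gene. Il5 is the highest of the 11 tested genes, and 4 non-members on the Il4 side lie between 0.67 and 1.36.

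Il9, a mast cell and epithelial cytokine, had 389, 406 and 641 FPKM with IL-2 and 79.0, 70.1 and 240 FPKM with IL-33. Every IL-33 library was below every IL-2 library. The mean was 3.69-fold lower with IL-33, and the log2 difference was -2.07 (SE 0.463, adjusted p = 0.0121, limma). Il9 was 5.33-fold lower within libraries 1 to 4 and 2.67-fold lower within libraries 5 and 6.

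Il3 had 81.9, 107 and 339 FPKM with IL-2 and 197, 161 and 369 FPKM with IL-33, and the groups overlapped through library 5. Its log2 difference of 0.65 did not pass the test (SE 0.548, adjusted p = 0.367, limma). With 1 library left out it ranged from 0.25 (without library 1, adjusted p = 0.743) to 1.26 (without library 5, adjusted p = 0.0338). It was 0.44 without library 3 and 0.30 without library 6, neither past the threshold. Csf2, the GM-CSF gene, had 236, 258 and 796 FPKM with IL-2 and 161, 137 and 790 FPKM with IL-33, so libraries 5 and 6 stood at one level above the other 4. Its log2 difference of -0.49 did not pass (SE 0.744, adjusted p = 0.619, limma) and turned to 0.075 without library 5 and to -1.29 without library 6.
Il31, the itch cytokine, had 8.66, 9.61 and 31.8 FPKM with IL-2 and 36.1, 29.9 and 96.0 FPKM with IL-33. The groups overlapped only in that library 5 exceeded library 4. The means differed 3.23-fold, and the log2 difference of 1.68 narrowly missed the threshold (SE 0.580, adjusted p = 0.0532, limma). It passed after TPM (0.0458) and median-of-ratios scaling (0.0418), and without library 5 (log2 difference 2.25, adjusted p = 0.0140). Leaving out any other library did not bring it past the threshold: the log2 difference then ranged from 1.18 (without library 6) to 2.00 (without library 4), and the adjusted p from 0.0661 to 0.141. With no filter on low values the adjusted p was 0.111.

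Libraries 5 and 6 bore on several of these results. Library 5 exceeded the mean of the other IL-2 libraries, and library 6 that of the other IL-33 libraries, 3.58- and 2.07-fold for Il3, 3.22- and 5.29-fold for Csf2, 3.49- and 2.91-fold for Il31 and 1.61- and 3.22-fold for Il9. Of all tested genes, 0.379% were at least 1 log2 unit higher in both. Among the 8 members only Il3, Csf2 and Il31 were, and Il9 was 0.69 higher in library 5 and 1.68 in library 6. Il4, Il13, Il5 and Rad50 in library 5 were between 0.831 and 1.28 times the mean of libraries 1 and 3. In library 6 all 4 were above the mean of libraries 2 and 4, at 1.62 (Il4), 1.64 (Il13), 1.37 (Il5) and 1.25 (Rad50) times. With a batch term for libraries 5 and 6, an alternative chosen after these values were seen, 6 of the 8 members were called higher and 2 lower, where 56.6% of all tested genes were called (20.9% higher and 35.6% lower). Adjusted p in that limma fit was 0.0263 for Il13, 0.0244 for Il3 and 2.37e-05 for Il31, all higher, and 0.0354 for Csf2, lower, and 0.0294 for Il4. Whether the 2 libraries share a batch was not tested beyond this.

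For each of 4 members, the 3 tested genes most like it were found by the mean absolute difference of log2(FPKM + 1), each gene centred on its own mean, over the 6 Th2 libraries. Bcam (0.045), Tmtc2 (0.072) and Ccr8 (0.083), a chemokine receptor of Th2 cells, were nearest to Il5. Mean levels with IL-2 and with IL-33 were 0.370 and 7.23 FPKM for Bcam and 0.199 and 6.05 for Tmtc2. Those of Ccr8 were 22.3 and 131 FPKM, and those of Il5 258 and 1563. Stau2 (0.079), Wdhd1 (0.085) and Plk2 (0.085) were nearest to Il4, for which Rad50 ranked 24th (0.13) and Il13 163rd among the 10296 genes. Ccnd2 (0.050), Itga3 (0.056) and Anp32a (0.071) were nearest to Il13, and Gbp5 (0.080), Il4i1 (0.13) and Gvin1 (0.19) to Il9. Stau2 (means of 0.946 and 2.55 FPKM) and Il4i1 (4.12 and 0.624) were also low. On this scale differences of low genes are understated, so a near gene need not share the member's fold. These are distances over 6 libraries that share the IL-33 contrast, and no test was made of them.

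Receptors for the members were few in the Th2 cells. Of 12 listed, 6 were tested, 3 were higher with IL-33 and 1 lower, and the median log2 difference was 0.43. Il4ra, the IL-4 and IL-13 receptor chain, rose from 61.3 ± 16.6 to 94.7 ± 7.04 FPKM (log2 difference 0.66, adjusted p = 0.0353, limma). Il3ra rose from 3.86 ± 0.104 to 11.5 ± 0.558 FPKM (1.36, adjusted p = 5.28e-05) and Il9r from 1.00 ± 0.233 to 3.02 ± 0.561 FPKM (1.00, adjusted p = 0.00223). Il13ra1, the partner chain for IL-13, fell from 3.17 ± 1.12 to 0.0848 ± 0.00387 FPKM (-1.91, adjusted p = 0.000605). Il13ra1 met the filter of 1 FPKM in 3 libraries through the IL-2 libraries alone. The filter was thus not independent of this difference, and the call is not support for it. Il9r had 0.779 to 1.24 FPKM with IL-2 and met the filter only because of the IL-33 libraries. The same limit thus holds for the call of Il9r. Il2rg, the common gamma chain that IL-4 and IL-9 signal through, did not pass at 682 ± 62.4 and 604 ± 14.1 FPKM (adjusted p = 0.214).

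Of 18 factors known to activate the locus, all were tested, 7 were higher with IL-33 and 3 lower, with a median of 0.09. Gata3, the master factor of Th2 cells, rose from 104 ± 23.6 to 224 ± 13.6 FPKM (log2 difference 1.13, adjusted p = 0.00279, limma). Pparg, a nuclear receptor needed for Th2 effector function, rose from 30.1 ± 8.73 to 99.8 ± 2.37 FPKM (1.74, adjusted p = 0.000924), and the AP-1 family factor Batf from 152 ± 19.8 to 343 ± 50.3 FPKM (1.17, adjusted p = 0.00104). Maf, an activator of Il4, rose from 59.2 ± 32.1 to 192 ± 52.0 FPKM (1.85, adjusted p = 0.0215). Ets1 (0.67, adjusted p = 0.00283) and the chromatin organizer Satb1 (1.09, adjusted p = 0.0126) rose as well. Nfatc1, a factor that carries the T cell receptor's calcium signal, fell from 55.7 ± 4.95 to 23.4 ± 3.97 FPKM (-1.22, adjusted p = 0.000663), and Irf4 from 330 ± 12.5 to 204 ± 20.4 FPKM (-0.69, adjusted p = 0.00210). Junb and Rbpj, both above 100 FPKM, did not pass (adjusted p = 0.205 and 0.361).
Of 7 factors that oppose the locus, 3 were tested and all 3 were called. Tbx21, the Th1 factor T-bet, fell from 47.8 ± 19.5 to 8.62 ± 6.94 FPKM (log2 difference -2.50, adjusted p = 0.00730, limma) and Bcl6 from 9.37 ± 2.39 to 5.36 ± 1.31 FPKM (-0.70, adjusted p = 0.0284), while Runx3, which silences Il4 in Th1 cells, rose from 16.7 ± 2.09 to 27.4 ± 2.81 FPKM (0.69, adjusted p = 0.00455). Of 8 listed regulators of Il9, 7 were tested, 2 were higher and 1 lower. Besides Batf and Irf4, the called one was Etv5, which rose from 3.72 ± 0.377 to 12.7 ± 1.78 FPKM (1.53, adjusted p = 0.000171).

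Other T cell cytokines gave a measure of how the members stood beside them. Of 13 listed, 11 were tested, 4 were higher and 3 lower, and the median of the 11 was -0.97, opposite in sign to the balance of the calls. Il10, which dampens inflammation, rose from 217 ± 152 to 2860 ± 325 FPKM (log2 difference 4.16, adjusted p = 0.00452, limma), which is above the mean of every member but Il13 and Il4. Areg, the amphiregulin gene, rose from 92.9 ± 16.7 to 792 ± 298 FPKM (3.03, adjusted p = 0.000261) and Il24 from 805 ± 317 to 2083 ± 193 FPKM (1.46, adjusted p = 0.0106). Il2, the T cell growth factor, fell from 727 ± 577 to 99.7 ± 117 FPKM (-3.24, adjusted p = 0.0215) and Lta from 153 ± 117 to 17.0 ± 5.31 FPKM (-2.89, adjusted p = 0.00380). Tnf did not pass at 185 ± 133 and 102 ± 88.7 FPKM (adjusted p = 0.262).
Genes known to respond to IL-4 and IL-13 were mostly low in the Th2 cells: 6 of 19 listed were tested, 2 were higher and 1 lower, and the median was 0.02. Tgm2 rose from 1.21 ± 0.509 to 8.22 ± 1.66 FPKM (log2 difference 2.07, adjusted p = 0.000490, limma) and Retnla from 0.0617 ± 0.107 to 2.81 ± 0.955 FPKM (1.82, adjusted p = 0.000598), while Pdcd1lg2 fell from 24.6 ± 1.68 to 13.7 ± 3.49 FPKM (-0.82, adjusted p = 0.00782). Retnla met the filter of 1 FPKM in 3 libraries through the IL-33 libraries alone, so its call is not support for a difference. Tgm2, at 0.636 to 1.61 FPKM with IL-2, also met it only because of the IL-33 libraries, and the same limit holds for its call. The feedback genes Socs1 and Cish did not pass (adjusted p = 0.433 and 0.541). The epithelial cytokines Il33, Il25 and Tslp were below the filter.
Marker genes moved beside the members. Of 12 T cell genes, 11 were tested, 8 were higher and 2 lower, and their summed level was 1720 to 2191 FPKM with IL-2 and 3023 to 3424 with IL-33. Of 5 genes shared with group 2 innate lymphoid cells, 4 were tested and 3 were higher, among them Il1rl1, the ST2 gene, from 51.5 ± 6.73 to 512 ± 6.10 FPKM (log2 difference 3.30, adjusted p = 7.09e-06, limma). The eosinophil gene Ccr3, also a receptor of Th2 cells, rose from 1.18 ± 0.543 to 6.95 ± 1.16 FPKM (1.89, adjusted p = 0.000690), with Prg2 at 0 in all 6 libraries. Ccr3, at 0.620 to 1.70 FPKM with IL-2, met the filter only because of the IL-33 libraries. Its call is thus not support for a difference. Of the mast cell and basophil list 1 of 11 genes was tested and 0 called, of the macrophage list 2 of 7 were tested and 1 was lower, and no B cell gene was tested. The part of these markers in the members' differences was not tested.

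The eosinophil cultures asked what amphiregulin changes. Among the members, RAD50 was the only gene above the filter, IL4 and IL13 were read at low level in some libraries, and IL5, IL3, CSF2, IL9 and IL31 were listed at 0 in all 6. Of the 8 members, 1 was tested and 0 were called, beside 0.206% of 12636 tested genes. In 0 of the 8 did the groups stand apart, but the 5 listed at 0 could not. Groups stood apart in 6.69% of the tested genes, a share that only RAD50 can be set beside.
RAD50 had 2.95, 5.37 and 1.54 FPKM without amphiregulin and 5.03, 5.15 and 1.63 FPKM with it, and the groups overlapped. The log2 difference was 0.20 (SE 0.476, adjusted p = 0.999, limma), and with the library number as a block the adjusted p was 0.854. It turned to -0.12 without the control library 4 and to -0.0058 without the amphiregulin library 3. IL4 had 0.154, 8.49 and 0.345 FPKM without amphiregulin and 0.189, 3.86 and 0 FPKM with it, and IL13 had 0.0954, 1.03 and 0 FPKM against 0, 1.48 and 0. Both genes were highest in the libraries numbered 3 of each group and the groups overlapped in both (exact permutation test, p = 0.6 for IL4 and p = 1 for IL13). Without the control library numbered 3, the log2 difference of IL4 was 0.53, against a negative one over all 6.

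Libraries numbered 3 also had the highest summed level of mast cell and basophil genes, and the plot of IL4 beside markers shows 3 of them, chosen after their values were seen.

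**Figure D5:**
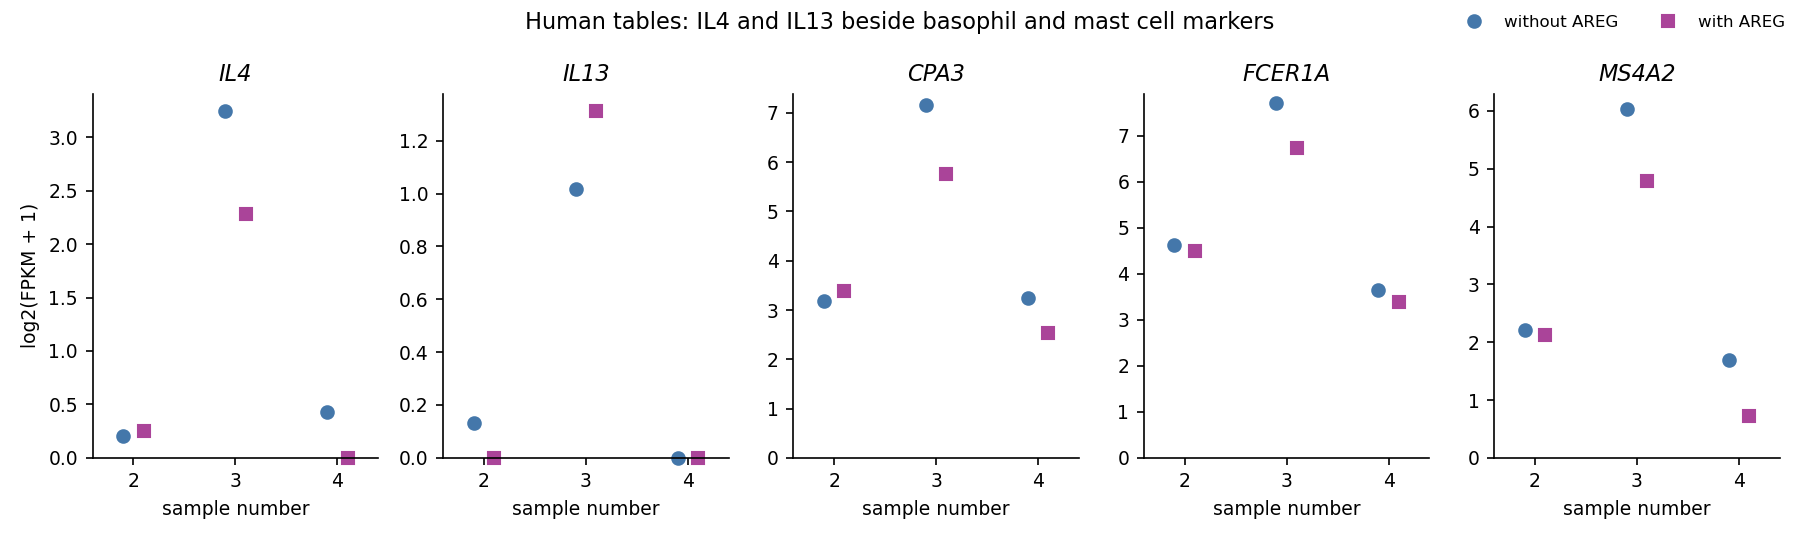
Level as log2(FPKM + 1), on a scale of its own for each gene, of IL4, IL13 and 3 mast cell and basophil genes (CPA3, FCER1A and MS4A2) in the 6 human eosinophil libraries, by library number and treatment. IL4 is at 8.49 and 3.86 FPKM in the libraries numbered 3, where these 3 markers, chosen after their values were seen, are also highest of their group.

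The basophil and mast cell gene FCER1A, a chain of the IgE receptor, had 23.8, 207 and 11.5 FPKM without amphiregulin and 21.6, 105 and 9.39 FPKM with it. MS4A2, the beta chain of that receptor, had 3.61, 64.7 and 2.21 FPKM against 3.38, 26.7 and 0.655, and CPA3, a mast cell protease, 8.12, 142 and 8.42 FPKM against 9.39, 52.9 and 4.76. HDC and GATA2 were likewise highest in the libraries numbered 3 of both groups. The mast cell tryptases TPSB2 and TPSAB1, near-identical copies whose reads may have been split, were highest there only with amphiregulin: TPSB2 had 158, 144 and 44.3 FPKM without amphiregulin and 76.5, 126 and 23.1 FPKM with it, and TPSAB1 113, 109 and 29.8 FPKM against 53.8, 93.2 and 10.4. Summed over the 8 listed genes found in these tables, the level was 333, 1035 and 125 FPKM without amphiregulin and 199, 711 and 71.6 FPKM with it. The T cell gene CD3E was not highest there, with 119, 93.5 and 53.3 FPKM without amphiregulin and 65.9, 51.7 and 27.6 FPKM with it. The eosinophil gene CLC had 1490, 1235 and 4483 FPKM against 867, 1161 and 2620. The height of libraries numbered 3 was not particular to mast cell and basophil genes. Summed B cell genes and summed other T cell cytokines were also highest there in both groups. Summed T cell genes and summed eosinophil genes were highest there in neither group. The part of other cells in the reads of IL4 and IL13 was not tested.

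Of 10 receptor genes found in these tables, 7 were tested and 0 called, CSF2RB, the chain shared by the receptors of IL-3, IL-5 and GM-CSF, being highest at 208 ± 85.7 FPKM without and 392 ± 197 FPKM with amphiregulin (adjusted p = 0.999, limma; 0.119 with the library number as a block). Of the genes known to respond to IL-4 and IL-13, 16 were found and 10 tested, and 1 was higher and 0 lower, with a median log2 difference of 3.47. FCER2, the low-affinity IgE receptor CD23, had 0.402, 0 and 0.722 FPKM without amphiregulin and 472, 448 and 88.2 FPKM with it (log2 difference 7.63, adjusted p = 0.0225, limma). The labels' shared numbers allow a block by library number, although the correlations set only libraries 4 clearly apart as a pair. With this block, 7 of the 10 were higher, beside 0.53% of all genes higher and 1.12% called in either direction. The list was chosen with earlier results of these data known. The 10 also include genes that met the filter through the amphiregulin libraries alone. For both reasons this count is not support for a response of the list. TGM2 then had an adjusted p of 3.77e-05 and CCL22 of 0.00118. CCL17, a chemokine for Th2 cells, was listed at 0 in all 3 libraries without amphiregulin and had 478, 423 and 3.43 FPKM with it (adjusted p = 0.938, and 0.0673 with the block). FCER2 and CCL17, both among the 10 tested, met the filter of 1 FPKM in 3 libraries through the amphiregulin libraries alone. The filter was thus not independent of their differences, and their tests are not support for a difference. The summed level of the macrophage genes was 518 to 3540 FPKM without amphiregulin and 306 to 1360 FPKM with it, and their part in the response genes was not tested. The lists of locus activators (18 tested), opponents (7), Il9 regulators (8), other T cell cytokines (4), T cell (12), innate lymphoid (5), mast cell and basophil (7), eosinophil (8), macrophage (6) and B cell genes (3) had 0 calls without the block. With it, the macrophage genes CD14 (160 ± 127 FPKM without and 8.07 ± 6.31 FPKM with amphiregulin, adjusted p = 0.00194, limma) and APOE (940 ± 692 and 108 ± 112 FPKM, adjusted p = 0.00871) were lower.

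In whole lung after OVA, the comparison of dGATA with wild-type mice asked what the mutation changes in the allergic tissue. Rad50 and Csf2 were the highest members, both read in all 6 libraries, while Il4, Il13 and Il5 were below 2 FPKM in all 6, and Il3, Il9 and Il31 were listed at 0 in all 6. Of the 8 members, 3 were tested and 0 called, beside 0.0947% of 13727 tested genes. In bulk lung, fewer cells of a type and less RNA per cell cannot be told apart.
Il4 had 1.24, 1.83 and 1.67 FPKM in the wild type and 0, 0.770 and 0.699 FPKM in dGATA lungs. All 3 dGATA lungs were below all 3 wild-type lungs, and the groups stood apart, in either direction, in 14.1% of all tested genes. The log2 difference was -0.83 (SE 0.246) and did not pass the test (adjusted p = 0.583, limma). Il4 met the filter of 1 FPKM in 3 libraries through the wild-type lungs alone, so the filter was not independent of this difference, and neither the non-overlap nor the test is support for one. Without dGATA library 1, which lists Il4 at 0, the log2 difference was -0.57 and the adjusted p 0.199.
Il13 had 0.553, 0.866 and 0.616 FPKM in wild-type and 0, 1.63 and 0.502 FPKM in dGATA lungs, so the dGATA lungs held both the highest and the lowest value (exact permutation test, p = 0.8). Its log2 difference turned to 0.25 without dGATA library 1. Il5 had 0.367, 0.254 and 0.232 FPKM against 0.152, 0.290 and 0.294, and the groups overlapped (exact permutation test, p = 0.6). Rad50 had 6.37, 6.997 and 6.93 FPKM against 6.89, 6.02 and 5.46 (log2 difference -0.13, SE 0.103, adjusted p = 0.873, limma). Csf2 had 2.48, 4.13 and 4.28 FPKM against 4.50, 2.59 and 5.67 (0.16, SE 0.272, adjusted p = 0.950), and turned to -0.033 without wild-type library 1 and to -0.035 without dGATA library 3. Of 12 tested genes within 300 kb of the locus, 0 were called.

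Of 4 tested eosinophil genes, 2 were lower in the dGATA lungs. Ccr3, the eotaxin receptor, had 5.36 ± 0.733 FPKM in wild-type and 0.125 ± 0.111 FPKM in dGATA lungs (log2 difference -2.50, adjusted p = 0.00326, limma), Prg2, an eosinophil granule protein, 9.70 ± 3.27 and 0.428 ± 0.311 FPKM (-2.88, adjusted p = 0.0427), and Epx, below the filter, was listed at 0 in all 3 dGATA lungs. The other two, Il5ra (1.16 ± 0.331 and 0.999 ± 0.856 FPKM, adjusted p = 0.950) and Siglec5 (7.81 ± 0.704 and 6.09 ± 1.39 FPKM, adjusted p = 0.757), did not pass. With the replicate number as a block 0 of the 4 were called. Ccr3 and Prg2 met the filter of 1 FPKM in 3 libraries through the wild-type lungs alone. The filter was thus not independent of their differences, and neither call is support for a difference. Basophil and mast cell genes, which mark other sources of Il4, were not called, and Mcpt8, a basophil protease, had 0.308, 0.988 and 0.487 FPKM against 0.0794, 0.203 and 0.176. The summed level of the 11 mast cell and basophil genes was 92.3 to 124 FPKM in wild-type and 104 to 138 FPKM in dGATA lungs, whereas the median log2 difference of the 7 tested was -0.81. Cpa3 had 7.20 ± 2.25 and 4.08 ± 2.45 FPKM, and Fcer1a 1.23 ± 0.475 and 0.546 ± 0.375 FPKM, with overlapping groups in both. T cell genes summed to 139, 108 and 119 FPKM against 69.7, 181 and 139 FPKM. The part of these cells in the Il4 values was not tested.
dGATA library 1 was low in the genes that respond to IL-4 and IL-13, but not in these alone. It was the lowest of the 6 libraries in 15 of 17 tested genes of that list, of which 0 were called. Its summed level was also the lowest of the 6 for receptors, locus activators, opponents and other T cell cytokines. The same held for epithelial cytokines, T cell, innate lymphoid and B cell genes. It did not hold for Il9 regulators, mast cell and basophil, eosinophil or macrophage genes. How often this library was lowest over all tested genes was not counted. Retnla, a resistin-like secreted protein of type 2 inflammation, had 11276, 11044 and 8681 FPKM in wild-type and 656, 25231 and 10859 FPKM in dGATA lungs. Ccl11, the eosinophil attractant eotaxin, had 76.6, 72.3 and 56.9 FPKM against 4.64, 97.1 and 31.2, and Arg1 had 39.8, 33.6 and 29.8 FPKM against 1.19, 228 and 10.4. In each of these, dGATA library 2 was the highest and dGATA library 1 the lowest of all 6. Of the remaining lists, receptors (10 tested), locus activators (17), opponents (7), Il9 regulators (7), other T cell cytokines (3), epithelial cytokines (2), T cell (12), innate lymphoid (5), mast cell and basophil (7), macrophage (5) and B cell genes (3) had 0 calls.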

How the data were processed

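The authors deposited FPKM per gene. The tools named are Bowtie 0.12.8, TopHat 1.3.2 and Cufflinks 2.0.2, with the build mm10, per the submitters' processing notes, which name no build for the human tables. Samples were grouped by their titles. The files hold no counts, so no count model was used, and depth limits what low values show. FPKM were summed per symbol (240 mouse and 45 human symbols had several entries), and 114 human symbols were left out. Genes at 1 FPKM or more in at least 3 of 6 libraries were tested by limma 3.58.1 in R 4.3.3 with the trend option on log2(FPKM + 1), each pair of groups alone. Members below this filter, and ratios, had exact permutation tests. The fits were tested on simulated data.

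The members and lists were chosen with earlier results of these data known. Genes were named by a rule: all members, up to 4 called genes of each pathway list by p, and pathway list genes of at least 100 FPKM. It also took called genes within 300 kb of the locus, and the 3 genes most like each of 4 members. In the lung and eosinophils not all genes of at least 100 FPKM were described, among them Clca3, Postn, ALOX15 and CISH. Individual marker genes, in the Th2 cells as in lung and eosinophils, lay outside the rule and were named after their values were seen. Equal-numbered eosinophil libraries correlated at 0.399, 0.356 and 0.670 after removing group means and were treated as pairs in the block. Libraries 2 and 3 of opposite groups correlated at 0.308 and 0.281, so only libraries 4 were clearly set apart as a pair. Equal-numbered lung libraries did not correlate positively (-0.286, -0.116 and -0.243). Alternatives were other pseudocounts, filters and scalings, array weights, blocks, one model over the 12 mouse libraries and leaving out libraries. RefSeq promoters and the GENCODE annotation of GRCm38 gave sequences and exons.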

Additional observations from a re-analysis of the deposited data

How the results depend on the processing

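Of 526 alternative values, those of single members kept direction and call in 208, reversed in 14, gained a call in 18 and lost it in 9, all 9 for Il4 in the Th2 cells. There 3 members were called higher, but 5 with array weights and 6 with a batch term for libraries 5 and 6, and 1 was called lower, but 2 without libraries 5 and 6 and 2 with that term. Over all genes, 2651 were lower, but 1586 by TPM and 4050 with array weights, and 1530 to 3135 with a replicate left out. With a replicate left out, Csf2 ranged from -1.29 to 0.075 (without library 5). The Il13/Il4 ratio ranged from -0.34 to 0.014 and was 0.011 without libraries 5 and 6, and Il4/Rad50 ranged from -0.21 to 0.061 and was 0.24 within libraries 5 and 6. The Th2 groups share no replicate number, so no block was fitted there.
In the eosinophils 0 members were called, but 1 was higher with array weights. Over all genes 4 were higher, but 1 with pseudocount 0.1, 0 with 10, 2 with no filter, 2 at a mean of 5 FPKM, 8 by TPM, 1 by quantile normalization, 1875 with array weights, 67 with the replicate block and 0 when small RNA features were dropped, and 0 to 48 with a replicate left out. The 22 lower became 6 with pseudocount 0.1, 4 with 10, 6 at a mean of 5, 6 by quantile normalization, 1361 with array weights, 74 with the replicate block, 0 when small RNA features were dropped, and 4 to 24 with a replicate left out. IL13 turned to -0.16 with pseudocount 0.1. With a replicate left out, IL4 ranged from -1.17 to 0.53, IL13 from -0.38 to 0.37 and RAD50 from -0.12 to 0.61. TPM moved the median of all genes by 0.19.
In the lung 0 members were called, but 1 (Il4) was lower with array weights. Over all genes 6 were higher, but 558 with array weights, 2 with the replicate block, 19 in the 12-library model and 1 to 7 with a replicate left out. The 7 lower became 4 with pseudocount 10, 4 at a mean of 5, 878 with array weights, 1 with the block, 77 in the 12-library model, and 1 to 9 with a replicate left out. The block changed no member's call in either experiment. Members below the filter numbered 5, but 3 with no filter. Il13 turned to 0.0015 with pseudocount 10. With a replicate left out, Il13 ranged from -0.45 to 0.25 (without dGATA library 1), Il5 from -0.074 to 0.010 and Csf2 from -0.035 to 0.41. The cause of these shifts was not tested.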
